A study of Mus musculus with 81 samples.

Results

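Neutrophils of the C3H/HeJ strain were set against neutrophils of the CBA strains CBA/CaJ and CBA/J. The arrays were chosen by their titles: 2 arrays of C3H/HeJ and 4 arrays of CBA mice (2 of CBA/CaJ and 2 of CBA/J), which is 6 of the 81 arrays of a survey of mouse strains with 40 titled groups. All mice were 6-week-old males, and the cells were sorted from bone marrow by surface CD11b and Ly6G; the series design states that mice were pooled for an array. No group received a treatment. C3H/HeJ is homozygous for a defective allele of Tlr4, while the CBA strains are not known to carry it; the alleles were not read from these arrays. One inbred strain stands on the C3H side and 2 on the CBA side, so the p-values below measure the spread between arrays of a strain, each a separate pool of mice, and how strains of either stock vary in general was not sampled.

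C3H and CBA mice were bred from the same founding cross of a Bagg albino female with a DBA male, so long stretches of their genomes are shared and the remainder carries different parental alleles. Tlr4 forms the receptor for lipopolysaccharide, the outer-membrane lipid of Gram-negative bacteria, together with MD-2, the product of Ly96, and with the co-receptor CD14. Lipopolysaccharide-binding protein, the product of Lbp, hands the lipid to CD14. The receptor signals through MyD88 to inflammatory cytokines and through TRIF to interferon beta, and secreted type I interferon then acts through the receptor chains Ifnar1 and Ifnar2 to switch on a large set of interferon-stimulated genes. In C3H/HeJ a missense change in the signalling domain of Tlr4 leaves the animals unresponsive to lipopolysaccharide, while a transcript is still made. Such a change lies in the protein, and a transcript level says nothing of whether it is present.

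Values are log2 intensities of array probe sets, a difference is C3H/HeJ minus the average of the CBA/CaJ and CBA/J means, given with ± its standard error (SE), and each adjusted p comes from limma with Benjamini-Hochberg adjustment over all 24922 probe sets. A probe set or gene is termed called when that adjusted p was under 0.05. The 6 array medians lay between 100.3 and 107.3 intensity units. Arrays of the same strain correlated at 0.9956 to 0.9968 over all probe sets. C3H/HeJ arrays correlated with CBA arrays at 0.9903 to 0.9929, and the arrays of the 2 CBA strains correlated with each other at 0.9909 to 0.9922. The ranges between strains overlapped, so on this measure the CBA strains could not be told to be closer to each other than to C3H/HeJ. Over the 1500 most variable probe sets, the strain whose profile was most like that of C3H/HeJ was CBA/J (Pearson r = 0.59 across probe sets, which are not independent), and CBA/CaJ came after the arrays titled Balb at 0.361.

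The mean level of 10 neutrophil markers, among them Ly6g, S100a8, S100a9 and the G-CSF receptor gene Csf3r, was 13.05 and 13.06 on the C3H/HeJ arrays, against 13.09 and 13.12 in CBA/CaJ and 13.02 and 13.07 in CBA/J. None of the 10 was called, nor did any have an unadjusted p under 0.05. Over all 24922 probe sets 2024 had such a p between C3H/HeJ and CBA, which is the scale for these counts. Intensities of different probe sets cannot be set against each other, so the purity of the sort was not measured, and each list of another cell type was compared between the strains only. Of 10 monocyte and macrophage markers none was called, but 4 had an unadjusted p under 0.05 (Adgre1 lower, F13a1, C1qa and C1qb higher in C3H/HeJ), 8 had a positive difference, and the list mean was 7.38 and 7.37 in C3H/HeJ, against 7.15 to 7.30 on the CBA arrays. Lists of B cells, basophils and mast cells and progenitors had no marker at an unadjusted p under 0.05, the erythroid, eosinophil and megakaryocyte lists had 1 each, and the list of T and NK cells had 2. Single markers were called: Nkg7, a granule protein of cytotoxic lymphocytes, was higher in C3H/HeJ by 0.81 ± 0.17 (adjusted p = 0.00279), Prg2, the eosinophil major basic protein, was higher by 0.41 ± 0.11 (adjusted p = 0.0447), and Itgb3, an integrin chain of platelets, was lower at -0.82 ± 0.11 (adjusted p = 5.66e-07). Nkg7 lost its call without C3H/HeJ replicate 2 (adjusted p = 0.206), and Prg2 without any 1 of the 6 arrays (adjusted p = 0.0622 to 1). The lists of these 3 markers had median differences of 0.04 (T and NK cells), 0.10 (eosinophils) and 0.05 (megakaryocytes). Members with a positive difference numbered 7 of 10, 5 of 7 and 4 of 7 in the same order. In such sorted bulk samples, fewer cells of a type and less RNA per cell cannot be told apart.

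Of the 24922 probe sets, 381 (1.53%) were called between C3H/HeJ and CBA. Most of them were higher in C3H/HeJ: 260 (1.04%) were higher and 121 (0.486%) lower. At least 2-fold differences were found for 94 (0.377%), of which 59 were higher and 35 lower. The 2 C3H/HeJ arrays lay wholly on one side of the 4 CBA arrays for 4126 probe sets (16.6%), and this held for 337 of the 381 called. The count of 381 fell to 191 without C3H/HeJ replicate 1 and to 181 without replicate 2, while the count with at least 2-fold was 90 and 92. Each CBA strain also differed by itself: C3H/HeJ against CBA/CaJ gave 615 called probe sets (2.47%), C3H/HeJ against CBA/J gave 284 (1.14%), and CBA/J against CBA/CaJ gave 425 (1.71%). These comparisons share arrays. Of the 381 probe sets, 80 were also called between the CBA strains.

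Taking the brightest probe set for each of 19752 genes, 216 genes (1.09%) were called higher in C3H/HeJ and 98 (0.496%) lower. Among the 8457 genes whose mean was at least 7, 157 (1.86%) were higher and 79 (0.934%) lower. A 4-fold difference was reached by 14 higher and 6 lower genes. Probes are designed on the C57BL/6J reference sequence, and a variant under a probe can lower its intensity, so a large difference between strains may come from the level of the transcript or from the match of the probe, and these values cannot tell them apart.

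**Figure D1:**
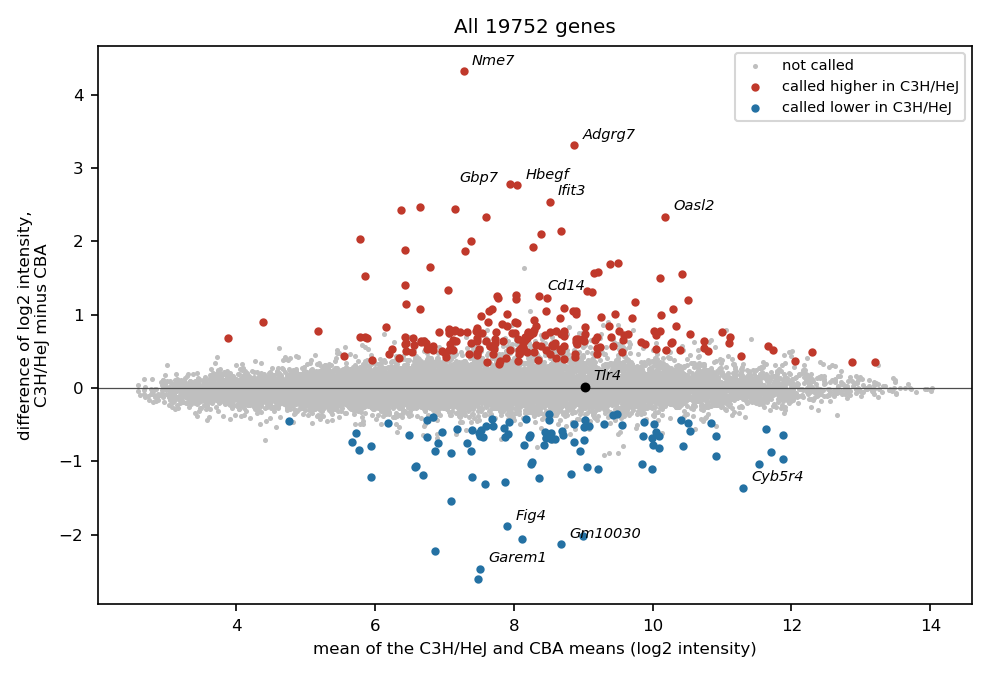
Difference of log2 intensity between C3H/HeJ and CBA (vertical axis) against the mean of both groups (horizontal axis) for 19752 genes. Of these, 216 were called higher (red) and 98 lower (blue); the black point is Tlr4, which lies on the zero line.

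The receptor complex for lipopolysaccharide was examined first. Tlr4 itself did not differ detectably. It stood at 8.98 and 9.11 on the C3H/HeJ arrays, against 8.91 and 8.84 in CBA/CaJ and 9.01 and 9.33 in CBA/J. The groups overlapped, and the difference was 0.02 ± 0.16 (adjusted p = 0.999) with a 95% interval of -0.31 to 0.35. Ranked from the highest among the 40 strain means, C3H/HeJ was number 32 for Tlr4, CBA/CaJ number 38 and CBA/J number 20. The 5 measured genes on either side of Tlr4 on chromosome 4, Tnfsf8, Tnc, Pappa, Astn2 and Trim32 on one side and Brinp1, Cdk5rap2, Megf9, Tle1 and Aldoart1 on the other, held no called gene, with differences between -0.26 and 0.11.

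Its co-receptor did differ. Cd14 was at 9.20 and 8.78 in C3H/HeJ, against 8.09 and 7.76 in CBA/CaJ and 7.54 and 7.54 in CBA/J. Both C3H/HeJ arrays lay above all 4 CBA arrays, and the difference was 1.26 ± 0.24 (adjusted p = 4.41e-04). Cd14 is also abundant in monocytes, whose marker list had a median difference of 0.19; the part of such cells in the difference was not tested. Without C3H/HeJ replicate 1 the difference of Cd14 was 1.05 and missed the threshold (adjusted p = 0.121). Lbp was at 11.39 and 11.43 in C3H/HeJ, against 10.97 and 10.84 in CBA/CaJ and 10.69 and 10.70 in CBA/J, a difference of 0.61 ± 0.14 (adjusted p = 0.00643) that missed the threshold without either C3H/HeJ array (adjusted p = 0.12 and 0.166). The level of Cd14 in C3H/HeJ was in the middle of the survey (number 17 of 40), with CBA/CaJ at number 23 and CBA/J at number 28. The other members were not called: Ly96 was at 10.94 and 11.16 in C3H/HeJ, 11.24 and 11.21 in CBA/CaJ and 10.42 and 10.46 in CBA/J. Itgam and Itgb2, the chains of the CD11b/CD18 integrin, differed by -0.05 and -0.01, and Cd180 and Ly86, a receptor pair related to TLR4 and MD-2, by 0.12 and 0.05.

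Downstream of the receptor the share of called genes was near that of all genes, of which 314 (1.59%) were called in either direction. Of 17 adaptors and kinases of the pathway 1 was called, Ikbke, a kinase that phosphorylates interferon regulatory factors, whose 2 C3H/HeJ arrays lay above the 4 CBA arrays at 7.57 to 7.74. Its difference of 0.41 ± 0.11 (adjusted p = 0.0361) lost its call without either C3H/HeJ array, CBA/CaJ replicate 2 or either CBA/J array (adjusted p = 0.0736 to 0.639). The adaptor Myd88 differed by 0.24 (adjusted p = 0.299). None of 17 inhibitors of the pathway and none of 26 cytokines and effectors induced by lipopolysaccharide was called, with median differences of -0.07 and 0.01, beside -0.01 over all genes. An unadjusted p under 0.05 was reached by 2 of the inhibitors and 4 of the effectors, and by 2024 of all 24922 probe sets. The chemokine Ccl3 had the largest difference of the effectors, with 8.77 and 8.91 in C3H/HeJ against 10.18 and 9.58 in CBA/CaJ and 9.91 and 9.36 in CBA/J. Both C3H/HeJ values were the lower ones, but arrays of one strain scattered widely for Ccl3 and the difference of -0.92 ± 0.42 did not pass (adjusted p = 0.534). Il1b and Tnf differed by 0.29 and 0.22 and were not called. None of 10 genes for other Toll-like receptors and their trafficking was called, the differences lying between -0.25 for Tlr8 and 0.22 for Unc93b1, and none had an unadjusted p under 0.05.

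Interferon-stimulated genes were higher in C3H/HeJ. Of 39 measured members 22 were called higher (over all genes, 1.09%) and none lower, and 37 had a positive difference. Both C3H/HeJ arrays lay above all CBA arrays for 30 members, and for 1525 of all genes (7.72%). The median difference was 0.65, beside -0.01 over all genes. The mean level of the list was 9.04 and 9.07 on the C3H/HeJ arrays, against 8.24 and 8.12 in CBA/CaJ and 8.18 and 8.30 in CBA/J. Among the 40 strains C3H/HeJ had the highest list mean, 9.05, but the arrays titled BPL followed at 9.04, a gap smaller than the spread between replicate arrays. Single arrays of SM/J (9.11), titled BPL (9.10) and C57L/J (9.09) lay above both C3H/HeJ arrays. CBA/J was number 26 and CBA/CaJ number 30, the median of the other 37 strains being 8.41. The list held 21 members called higher against CBA/CaJ (over all genes, 1.91%) and 17 against CBA/J (0.724%), whereas 1 member was called higher in CBA/J than in CBA/CaJ (1.07%). Leaving out an array gave counts of 14 (without C3H/HeJ replicate 2) to 21.

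The interferon genes with the largest differences showed wide gaps. Ifit3, an antiviral protein that binds viral RNA complexes, stood at 9.82 and 9.76 in C3H/HeJ, against 7.54 and 7.44 in CBA/CaJ and 6.93 and 7.06 in CBA/J, a difference of 2.54 ± 0.31 (adjusted p = 6.05e-08). Ifit1, of the same family, was at 9.02 and 9.46 in C3H/HeJ, against 7.52 and 7.26 in CBA/CaJ and 7.19 and 7.32 in CBA/J (1.92 ± 0.25, adjusted p = 4.06e-07). For both genes C3H/HeJ had the highest mean of the 40 strains and the CBA strains ranked between 25 and 31. Oasl2, an oligoadenylate synthetase-like protein, was at 11.33 and 11.36 in C3H/HeJ, against 8.49 and 8.53 in CBA/CaJ and 9.37 and 9.65 in CBA/J (2.34 ± 0.21, adjusted p = 4.08e-12). Its CBA strains were themselves called apart, with CBA/J higher than CBA/CaJ by 1.00. Slfn5, a Schlafen family member, was at 8.32 and 8.45 in C3H/HeJ, against 6.18 to 6.52 on the CBA arrays (2.01 ± 0.27, adjusted p = 3.72e-07). Rsad2, the antiviral enzyme viperin, was at 10.02 and 10.45 in C3H/HeJ, against 8.37 to 8.78 on the CBA arrays (1.69 ± 0.23, adjusted p = 9.57e-07). Ifit3b (2.03 ± 0.35, adjusted p = 9.62e-05) is a near copy of Ifit3, and their probe sets may share signal; the same holds for the Oas1 copies and the guanylate-binding and kallikrein families. Usp18, which shuts off interferon receptor signalling, and the transmembrane protein Rtp4, both picked here after their values were seen, were higher by 1.58 ± 0.23 and 1.56 ± 0.26. Not every member followed: Mx1, Bst2, Samd9l and Slfn1 differed by -0.10, -0.02, 0.05 and 0.09.

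**Figure D2:**
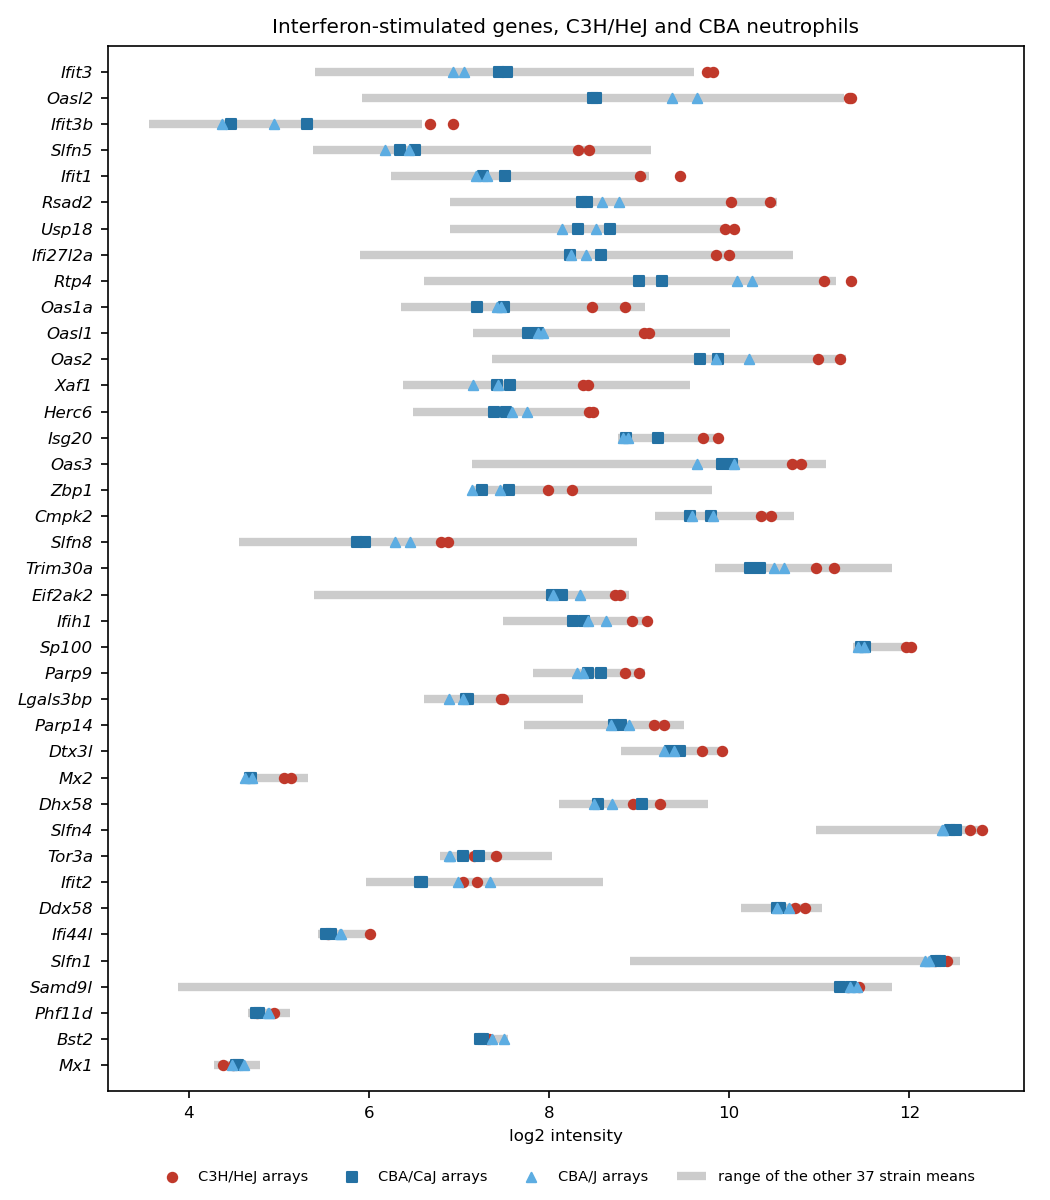
Log2 intensity (horizontal axis) of the 39 interferon-stimulated genes, ordered by their difference, on the C3H/HeJ arrays (red circles), CBA/CaJ arrays (dark squares) and CBA/J arrays (light triangles), with the range of the other 37 strain means in grey. From Ifit3 down to Mx2 the red circles lie to the right of the CBA symbols, and at the bottom, from Samd9l to Mx1, they lie among them or within their spread.

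Many of these genes carry an interferon-stimulated response element near the start site, a sequence bound by interferon regulatory factors such as IRF9. Promoter sequences of RefSeq (build GRCm38.p6), covering 250 bases before to 50 after the start, were searched for GAAANNGAAA on either strand; overlapping copies were counted. The following are the 250 bases before the start, 5′ to 3′, for strongly differing members of the list, shown because their shared element is the feature searched for. Capitals mark the element, read on either strand.

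Ifit3, chr19:34583279-34583528, plus strand: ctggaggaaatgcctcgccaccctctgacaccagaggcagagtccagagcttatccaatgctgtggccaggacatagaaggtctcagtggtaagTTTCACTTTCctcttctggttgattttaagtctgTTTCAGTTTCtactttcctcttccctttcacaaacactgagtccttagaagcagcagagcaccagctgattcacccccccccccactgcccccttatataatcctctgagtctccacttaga

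Ifit1, chr19:34640639-34640888, plus strand: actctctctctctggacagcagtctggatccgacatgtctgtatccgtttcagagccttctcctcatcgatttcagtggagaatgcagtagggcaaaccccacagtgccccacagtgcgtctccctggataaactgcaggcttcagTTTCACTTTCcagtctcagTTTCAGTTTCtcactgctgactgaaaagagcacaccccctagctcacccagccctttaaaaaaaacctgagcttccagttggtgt

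Rsad2, chr12:26456453-26456702, minus strand: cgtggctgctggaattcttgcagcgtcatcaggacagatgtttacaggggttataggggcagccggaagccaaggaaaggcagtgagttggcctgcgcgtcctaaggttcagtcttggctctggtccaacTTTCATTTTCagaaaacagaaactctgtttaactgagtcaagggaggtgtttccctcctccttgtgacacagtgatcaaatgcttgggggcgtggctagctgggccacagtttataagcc

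Slfn5, chr11:82951852-82952101, plus strand: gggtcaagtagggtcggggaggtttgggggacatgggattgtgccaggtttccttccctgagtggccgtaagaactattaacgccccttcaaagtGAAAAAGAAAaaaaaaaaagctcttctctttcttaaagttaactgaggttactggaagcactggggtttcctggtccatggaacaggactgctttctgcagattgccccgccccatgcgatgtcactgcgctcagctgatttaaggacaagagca

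Ifit3 and Ifit1 held 2 copies each, Rsad2 and Slfn5 1 each; the Ifit1 copies begin 104 and 85 bases before the start, and that of Rsad2 120 bases before it. Of the 16 called interferon-stimulated genes with a RefSeq promoter, 9 held the element (56.2%), and so did 4 of 12 (33.3%) of those not called. With a spacer of 1 to 3 bases in place of 2, the shares were 68.8% and 66.7%. Of all genes at least 2-fold higher in C3H/HeJ 9 of 37 (24.3%) held it, and of those at least 2-fold lower 1 of 21 (4.76%). Over all measured genes with a promoter the share was 3.88%, and over all 32851 RefSeq promoters it was 3.44%. Genes called higher that were outside the interferon list held it in 5.88% of cases. A match describes these letters in the C57BL/6J sequence and is no evidence of binding; Oasl2 had no match in its window.

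Genes that carry the interferon signal itself moved in both directions. Of 17 measured, 4 were called higher (over all genes, 1.09%) and 2 lower (0.496%), and 8 had an unadjusted p under 0.05. Irf9, an interferon regulatory factor that binds this element, was at 10.60 and 10.57 in C3H/HeJ, against 9.82 to 10.11 on the CBA arrays (0.62 ± 0.12, adjusted p = 7.96e-04), and lost its call without C3H/HeJ replicate 1 (adjusted p = 0.0522). Irf7, which drives interferon production, was at 9.84 and 9.97 in C3H/HeJ, against 8.77 to 9.39 on the CBA arrays (0.77 ± 0.18, adjusted p = 0.00859), and lost its call without either C3H/HeJ array (adjusted p = 0.0941 and 0.25) or CBA/J replicate 1 (adjusted p = 0.0651). Of the receptor chains, Ifnar2 was higher at 12.04 and 11.88 in C3H/HeJ, against 11.49 and 11.28 in CBA/CaJ and 11.34 and 11.40 in CBA/J (0.58 ± 0.09, adjusted p = 5.13e-06). Its partner Ifnar1 was lower, at 9.85 and 9.70 in C3H/HeJ, against 10.48 and 10.43 in CBA/CaJ and 10.40 and 10.38 in CBA/J (-0.65 ± 0.10, adjusted p = 2.55e-05). The interferon gamma receptor chain Ifngr2 was higher by 0.37 ± 0.08 (adjusted p = 0.00551), a call lost without either C3H/HeJ array (adjusted p = 0.243 and 0.0655). Sting1, the adaptor of cytosolic DNA sensing, was lower, with a mean of 6.65 in C3H/HeJ, against 7.83 and 7.48 in CBA/CaJ and 7.41 and 7.41 in CBA/J (-0.88 ± 0.17, adjusted p = 4.16e-04); without C3H/HeJ replicate 2 it missed the threshold (adjusted p = 0.12). Stat2, Jak1, Jak2 and Cgas differed by 0.28, -0.20, -0.22 and 0.23 and were not called.

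Among guanylate-binding and immunity-related GTPases, interferon-inducible proteins that attack vacuoles holding pathogens, 2 of 9 were called (over all genes, 1.59%). Of the 9, 8 had a positive difference and 5 had an unadjusted p under 0.05. The list mean of C3H/HeJ was number 2 of the 40 strains. Gbp7 was at 9.29 and 9.38 in C3H/HeJ, against 6.28 and 6.69 in CBA/CaJ and 6.66 and 6.55 in CBA/J (2.79 ± 0.20, adjusted p = 1.20e-15). Gbp2b was at 7.10 and 7.63 in C3H/HeJ, against 5.37 and 5.40 in CBA/CaJ and 5.69 and 5.48 in CBA/J (1.88 ± 0.15, adjusted p = 3.52e-14). For Gbp2b C3H/HeJ was the highest and CBA/CaJ the lowest of the 40 strains; for Gbp7 C3H/HeJ was number 4 and the CBA strains were numbers 39 and 37. The other members, among them Gbp3 (0.13), Gbp5 (0.15) and Irgm1 (0.64, adjusted p = 0.133), were not called.

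Of the inflammasome genes, 3 were called apart between the CBA strains: Casp4, Nlrp1a and Nlrp1b. Of 15 measured, 2 were called higher in C3H/HeJ (over all genes, 1.09%) and 2 lower (0.496%), and 11 were not called. Pycard, the adaptor ASC, was at 7.93 and 7.89 in C3H/HeJ, against 8.49 to 8.64 on the CBA arrays (-0.65 ± 0.11, adjusted p = 1.03e-04). Casp4, the caspase that binds lipopolysaccharide inside the cell and is also known as caspase-11 in the mouse, was at 9.47 and 9.43 in C3H/HeJ, 9.30 and 9.15 in CBA/CaJ, and 7.98 and 8.04 in CBA/J, so that its average difference of 0.83 ± 0.13 (adjusted p = 8.10e-06) came from CBA/J (C3H/HeJ minus CBA/CaJ: adjusted p = 0.891). Nlrp1b was at 7.61 and 7.76 in C3H/HeJ, 6.09 and 6.44 in CBA/CaJ, and 7.84 and 7.94 in CBA/J, and Nlrp1a at 5.46 and 5.22, 6.96 and 7.17, and 5.43 and 5.20 in the same order; for both sensors C3H/HeJ resembled CBA/J, and CBA/CaJ lay apart. The calls of both Nlrp1 genes were lost without either C3H/HeJ array or either CBA/J array, that of Nlrp1a also without CBA/CaJ replicate 2 and that of Nlrp1b without CBA/CaJ replicate 1. Nlrp3, Casp1 and Aim2 were not called.

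**Figure D3:**
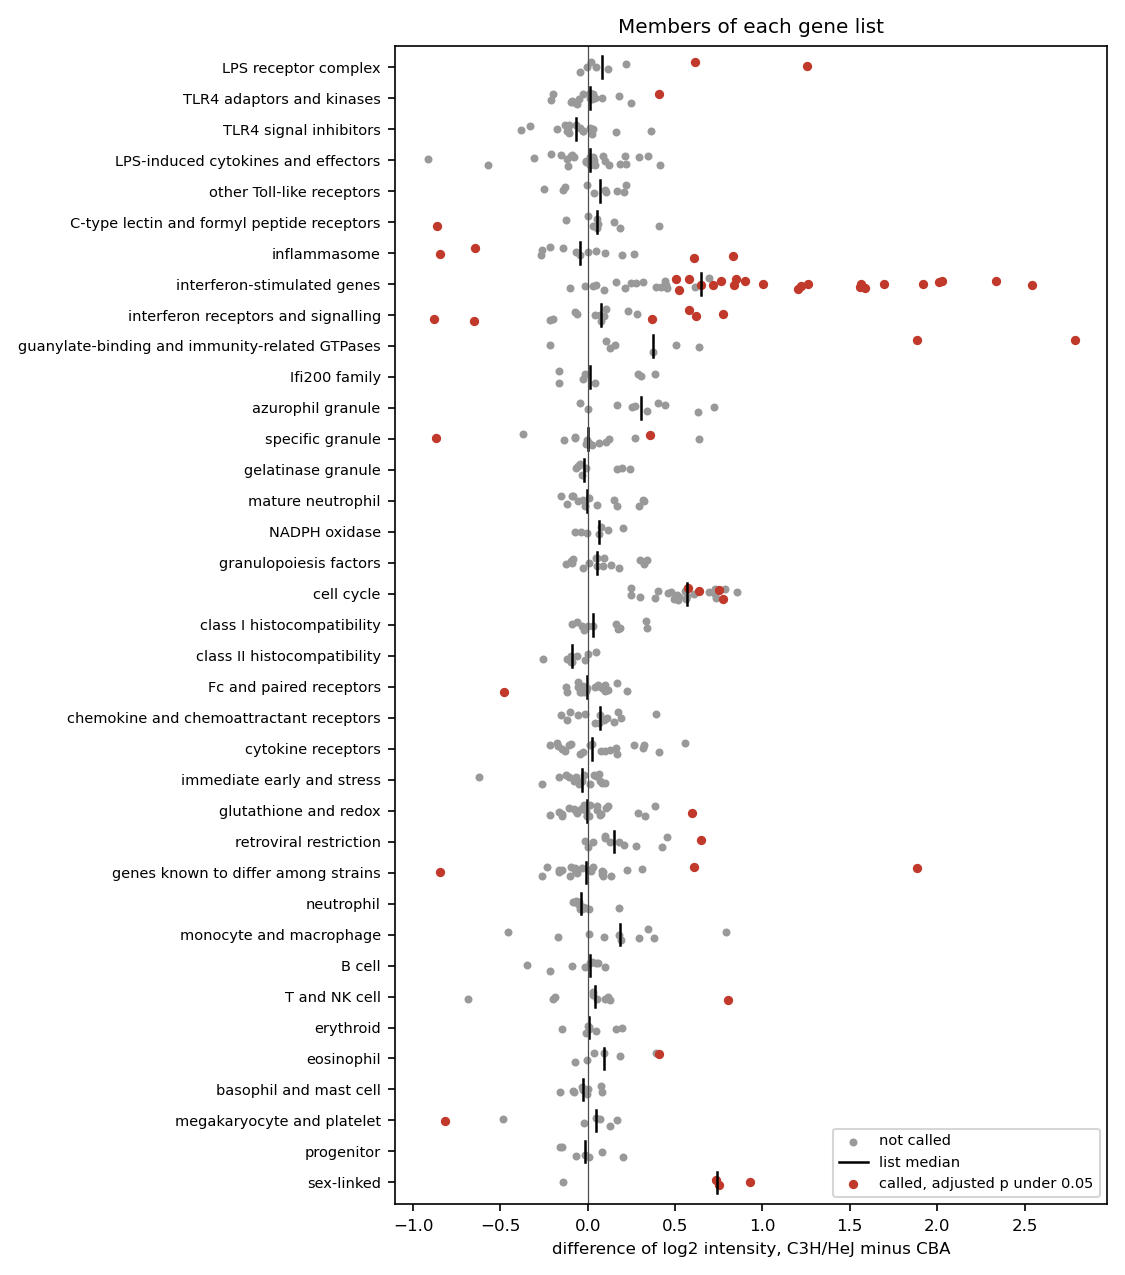
Difference of log2 intensity (horizontal axis) for each measured member of 37 gene lists (rows), with called members in red, the others in grey and the list median as a black line. Interferon-stimulated genes reach 2.54 with a median of 0.65, cell cycle genes all lie above 0 with 4 called, and the list of the lipopolysaccharide receptor complex holds 2 called members, Lbp and Cd14.

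Lists for the stage and function of neutrophils held few called genes, as did all genes (1.59%). Over all 24922 probe sets 2024 had an unadjusted p under 0.05. None of 8 gelatinase granule genes, 14 mature neutrophil genes, 7 NADPH oxidase subunits and 16 transcription factors and receptors of granulopoiesis was called, with median differences between -0.02 and 0.06; 2 mature neutrophil and 2 granulopoiesis genes had an unadjusted p under 0.05. Of 10 azurophil granule genes, made at the promyelocyte stage, 9 had a positive difference, 5 had an unadjusted p under 0.05 and none was called, and the list mean of C3H/HeJ was number 3 of the 40 strains; Ms4a3 was the largest at 0.72 ± 0.20 (adjusted p = 0.0554). Of 16 specific granule genes Camp, the cathelicidin peptide precursor, was higher by 0.36 ± 0.09 (adjusted p = 0.0235) and lost its call without either C3H/HeJ array, CBA/CaJ replicate 2 or either CBA/J array (adjusted p = 0.0635 to 0.376), while Itgb2l, an integrin beta chain of neutrophils, was lower at 11.25 and 11.30 in C3H/HeJ, against 12.03 to 12.23 on the CBA arrays (-0.87 ± 0.12, adjusted p = 4.46e-07). Class I and class II histocompatibility genes, where C3H and CBA share the k haplotype, held no called member among 11 and 9, with 1 and 0 at an unadjusted p under 0.05. None of 14 chemoattractant and 21 cytokine receptors was called (1 and 3 at an unadjusted p under 0.05). The activating receptor Fcgr4 was lower by -0.48 ± 0.12 (adjusted p = 0.0222), a call lost without C3H/HeJ replicate 2 (-0.30, adjusted p = 0.794), CBA/CaJ replicate 1 or either CBA/J array (adjusted p = 0.0552 to 0.129). The fungal lectin receptor Clec4n was lower at -0.86 ± 0.22 (adjusted p = 0.0225), a call lost without either C3H/HeJ array, CBA/CaJ replicate 1 or CBA/J replicate 1. Hmox1, heme oxygenase, was higher by 0.59 ± 0.16 (adjusted p = 0.0336) and lost its call without either C3H/HeJ array, CBA/CaJ replicate 2 or either CBA/J array. No immediate early gene of 18 was called (1 at an unadjusted p under 0.05); Jun, an AP-1 subunit, had its lowest mean of the 40 strains in C3H/HeJ (6.56 and 6.62, against 7.08 to 7.28 on the CBA arrays), with a difference of -0.62 ± 0.21 (adjusted p = 0.164).

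Cell cycle genes were high in C3H/HeJ and CBA/J and in the middle of the survey in CBA/CaJ. All 26 measured members had a positive difference in C3H/HeJ minus CBA, with a median of 0.57, and 19 had an unadjusted p under 0.05. Called higher were 4 (over all genes, 1.09%): Mcm5, a subunit of the replicative helicase (0.75), Cdc20 (0.77) and Aurka (0.58) of mitosis, and the survivin gene Birc5 (0.64). The mean of the list was 9.06 and 9.03 in C3H/HeJ, against 8.06 and 7.99 in CBA/CaJ and 9.03 and 8.85 in CBA/J, so CBA/J lay with C3H/HeJ and CBA/CaJ below both. Of the 40 list means C3H/HeJ had number 4, CBA/J number 6 and CBA/CaJ number 22, the median of the other 37 strains being 8.09. Against the average of 32 other classical strains, 22 members were called higher in C3H/HeJ (over all genes, 4.6%; over probe sets in either direction, 6.12%). Those values come from the same C3H/HeJ arrays. Against CBA/CaJ alone 14 members were called higher in C3H/HeJ (over all genes, 1.91%). Against CBA/J none was (over all genes, 0.724%), with 2 at an unadjusted p under 0.05 and a median difference of 0.10. In CBA/J 11 were called higher than in CBA/CaJ (over all genes, 1.07%). Pcna, the replication clamp, stood at 9.69 and 9.73 in C3H/HeJ, 8.23 and 8.04 in CBA/CaJ, and 9.76 and 9.38 in CBA/J. The count of 4 was 1 without either C3H/HeJ array, without CBA/CaJ replicate 2 and without CBA/J replicate 2. Dividing cells among sorted Ly6G-positive marrow cells are mostly immature, and the part of the cycling share in other differences was not tested.

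Of the 30 genes picked by size, Gbp7, Ifit3, Oasl2, Slfn5, Ifit1 and Gbp2b are described above, and the others belong to none of the gene lists. Nme7, a nucleoside diphosphate kinase family member of the centrosome, stood at 9.37 and 9.51 in C3H/HeJ, against 4.88 and 4.95 in CBA/CaJ and 5.27 and 5.37 in CBA/J, a difference of 4.32 ± 0.15 (adjusted p = 4.33e-28). In the other 37 strains its mean did not exceed 5.75. Hbegf, a membrane-bound ligand of the epidermal growth factor receptor, was at 9.40 and 9.46 in C3H/HeJ, against 6.61 and 6.71 in CBA/CaJ and 6.93 and 6.41 in CBA/J (2.76 ± 0.13, adjusted p = 6.71e-23), with no other strain mean above 7.02. Shroom4, an actin-binding protein, was at 8.04 and 8.70 in C3H/HeJ, against 5.88 to 6.01 on the CBA arrays and at most 6.22 elsewhere (2.44 ± 0.13, adjusted p = 9.67e-20). Klk1b22, a kallikrein, was at 7.49 and 7.68 in C3H/HeJ, against 5.06 to 5.26 on the CBA arrays and at most 6.38 elsewhere. For these 4 genes C3H/HeJ stood above every other strain mean of the survey. Fig4, a phosphatase acting on phosphoinositides, was the reverse, at 6.98 and 6.94 in C3H/HeJ, against 8.99 and 8.78 in CBA/CaJ and 8.74 and 8.85 in CBA/J (-1.88 ± 0.13, adjusted p = 1.26e-15), the lowest of the 40 strains, where the next lowest mean was 7.59.

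Other large differences had C3H/HeJ within the range of the survey. Adgrg7, an adhesion G protein-coupled receptor, was at 10.38 and 10.68 in C3H/HeJ (number 2 of 40), against 7.07 to 7.34 on the CBA arrays (3.31 ± 0.20, adjusted p = 1.68e-18). Zc3h12c, of a family of RNA-degrading zinc finger proteins, was at 7.95 and 7.83 in C3H/HeJ, against 5.10 to 5.63 on the CBA arrays, and its second probe set differed by 2.64. Drd2, a dopamine receptor, differed by 2.34, Igfbp4, a binding protein of insulin-like growth factors, by 2.14, and A630001G21Rik by 2.10.

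Among genes lower in C3H/HeJ the CBA strains were often the ones that stood out. Garem1, an adaptor of growth factor receptors, was at 6.34 and 6.21 in C3H/HeJ, against 8.82 and 8.73 in CBA/CaJ and 8.56 and 8.85 in CBA/J (-2.46 ± 0.14, adjusted p = 1.52e-19); CBA/CaJ was the highest and CBA/J number 3 of the 40 strains, and C3H/HeJ number 20. Gm10030 was at 7.64 and 7.58 in C3H/HeJ, against 9.61 to 9.83 on the CBA arrays, the CBA strains being the 2 highest of the survey (-2.13 ± 0.14, adjusted p = 2.08e-17). Ube2q2, a ubiquitin-conjugating enzyme, was at 7.06 and 7.12 in C3H/HeJ, against 8.80 to 9.44 on the CBA arrays (-2.07 ± 0.19), and its second probe set gave -2.06. Zfp949, a zinc finger protein, was at 8.03 and 7.94 in C3H/HeJ, against 9.85 to 10.13 on the CBA arrays (-2.02 ± 0.19). Cyb5r4, a cytochrome b5 reductase, was at 10.58 and 10.66 in C3H/HeJ, against 11.83 to 12.07 on the CBA arrays (-1.36 ± 0.13). Dock9, Vill, Gpr18, Nxpe3, Prorsd1, Ttc3, Fbxo22 and Rfk were lower by differences between -1.55 and -1.11. Dubr, a long non-coding RNA, was at 8.16 and 8.32 in C3H/HeJ, 8.55 and 8.47 in CBA/CaJ, and 10.15 and 10.45 in CBA/J, so its difference of -1.17 ± 0.14 came from CBA/J. Olfml2b and St8sia1, singled out after their values were seen, had average differences of -2.60 and -2.22 that rested on 1 CBA strain each, Olfml2b being high in CBA/J alone (11.38 and 11.37) and St8sia1 in CBA/CaJ alone (10.11 and 10.42).

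**Figure D4:**
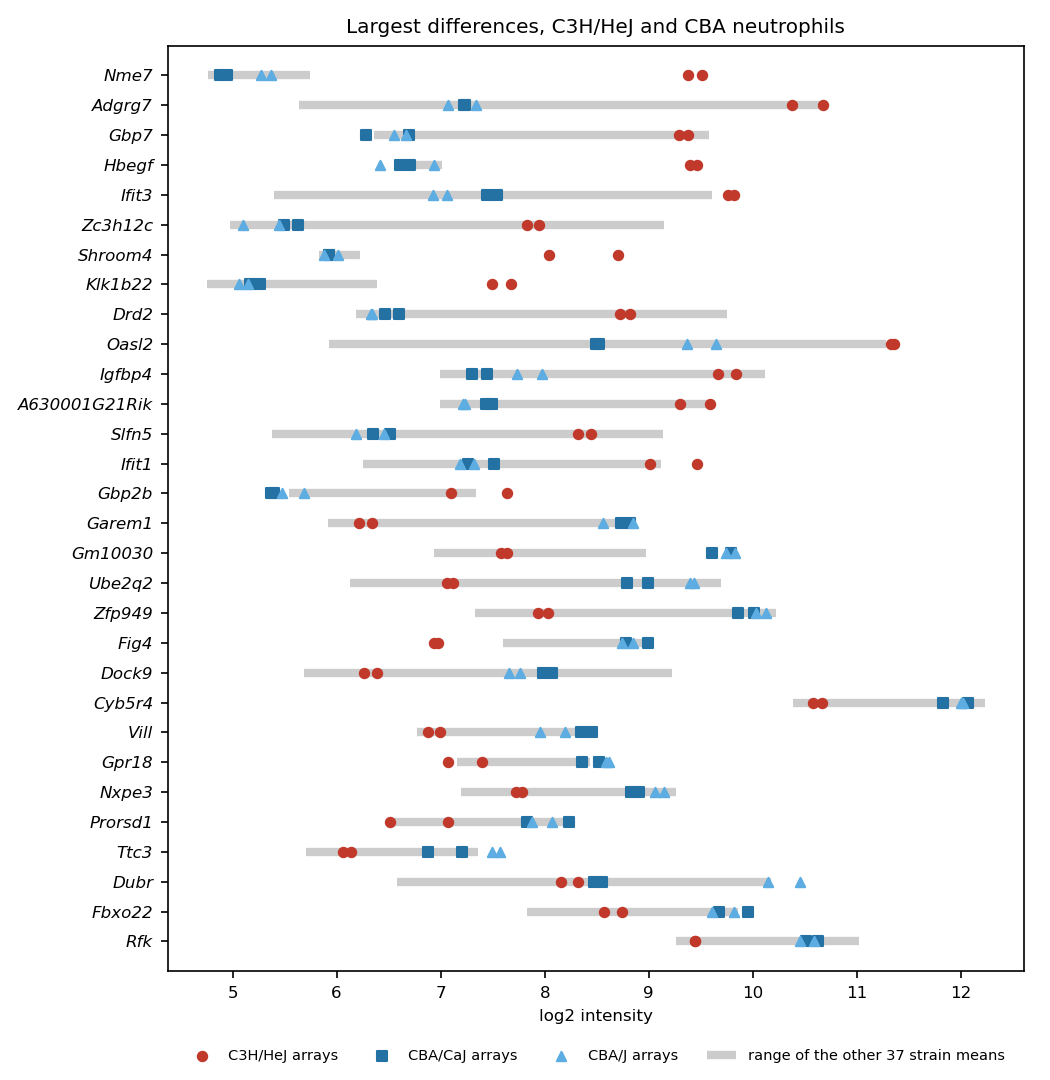
Log2 intensity (horizontal axis) of the 30 genes picked by size, 15 higher and then 15 lower, in C3H/HeJ arrays (red circles), CBA/CaJ arrays (dark squares) and CBA/J arrays (light triangles); grey bars span the other 37 strain means. Nme7, Hbegf, Shroom4, Klk1b22, Ifit3 and Oasl2 have both red circles beyond the upper end of the grey bar, and Fig4 has both below it. For Gm10030 all CBA symbols lie beyond the bar, and for some other genes part of the symbols do.

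A count over all large differences, which include the genes picked by size above, is given as a description. It comes from the same arrays and is no independent support. Of the 49 genes called at least 2-fold higher in C3H/HeJ, the C3H/HeJ mean lay further than the CBA mean from the median of the other 37 strains for 32, and C3H/HeJ was the highest of 40 for 13. Of the 25 called at least 2-fold lower, the CBA mean lay further from that median for 17, and both CBA strains were among the 5 highest for 12. Without the 2-fold limit, the CBA mean lay further for 56 of the 98 genes called lower, and the C3H/HeJ mean for 42. Of the 216 called higher, the C3H/HeJ mean lay further for 159 and the CBA mean for 57.

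Called genes were spread unevenly over the genome. Over all genes 1.59% were called. Among the autosomes, chromosome 9 held 39 called genes of 1158 measured (3.37%), 20 higher and 19 lower, and chromosome 16 held 21 of 645 (3.26%). The X chromosome held 2 of 734 (0.272%), and the Y chromosome 3 of only 9 (33.3%). For 17 of the 19 lower genes of chromosome 9, the CBA mean was further than C3H/HeJ from the median of the other strains. Gm10030, Ube2q2, Zfp949, Cyb5r4, Vill and Fbxo22, named above, lie on chromosome 9. In gene order, 60 of the 314 called genes had a called direct neighbour, and of 995 windows of 20 consecutive genes 770 held none and 3 held at least 4. The mean was 0.316 called genes per window. How many called neighbours that density alone would give was not computed.

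The 3 windows with at least 4 called genes are described here. The shorter window of the Y chromosome held 3 called of 9 measured genes, a higher share. On chromosome 6, Ppfibp1, Mrps35, Klhl42, Ccdc91 and Far2 were all higher in C3H/HeJ, Far2, a fatty acyl-CoA reductase, by the most, with 9.32 and 9.48 in C3H/HeJ, against 8.30 to 8.52 on the CBA arrays (1.00 ± 0.15). Mrps35, a mitochondrial ribosomal protein, differed by 0.82 ± 0.12 and Klhl42 by 0.74 ± 0.16. Without C3H/HeJ replicate 2 the calls of Ppfibp1, Klhl42 and Ccdc91 were lost (adjusted p = 0.112, 0.207 and 0.341). Ccdc91 lost its call also without C3H/HeJ replicate 1, either CBA/CaJ array or CBA/J replicate 2, and Klhl42 without CBA/J replicate 1. On chromosome 16, the window held Ifnar2, Ifnar1 and Ifngr2 together with Dnajc28 and Gart: 4 were higher and Ifnar1 lower. Dnajc28, a heat shock co-chaperone, was at 6.89 and 7.15 in C3H/HeJ, against 5.60 to 6.10 on the CBA arrays (1.14 ± 0.14), and Gart, an enzyme of purine synthesis, at 8.13 and 8.21, against 7.41 to 7.67 (0.64 ± 0.09). On chromosome 1, Sp100, a nuclear body protein on the interferon list, and A630001G21Rik were higher, and A530032D15Rik and A530040E14Rik lower; the last 2 have several probe sets that disagreed, 1 of the 3 of A530040E14Rik not being called and the 2 of A530032D15Rik differing by -0.58 and -2.16. By its brightest probe set A530032D15Rik lost its call without either C3H/HeJ array, CBA/CaJ replicate 2 or CBA/J replicate 2 (adjusted p = 0.0774 to 0.274), and A530040E14Rik without C3H/HeJ replicate 1, CBA/CaJ replicate 2 or CBA/J replicate 2 (adjusted p = 0.0553 to 0.552). Windows with 3 called genes included the Ifit genes on chromosome 19, Oas2, Oas3 and Oas1b on chromosome 5, and Hbegf, Cd14 and Tmco6 on chromosome 18. Cd14 thus had Hbegf among its near neighbours, and both were higher in C3H/HeJ.

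**Figure D5:**
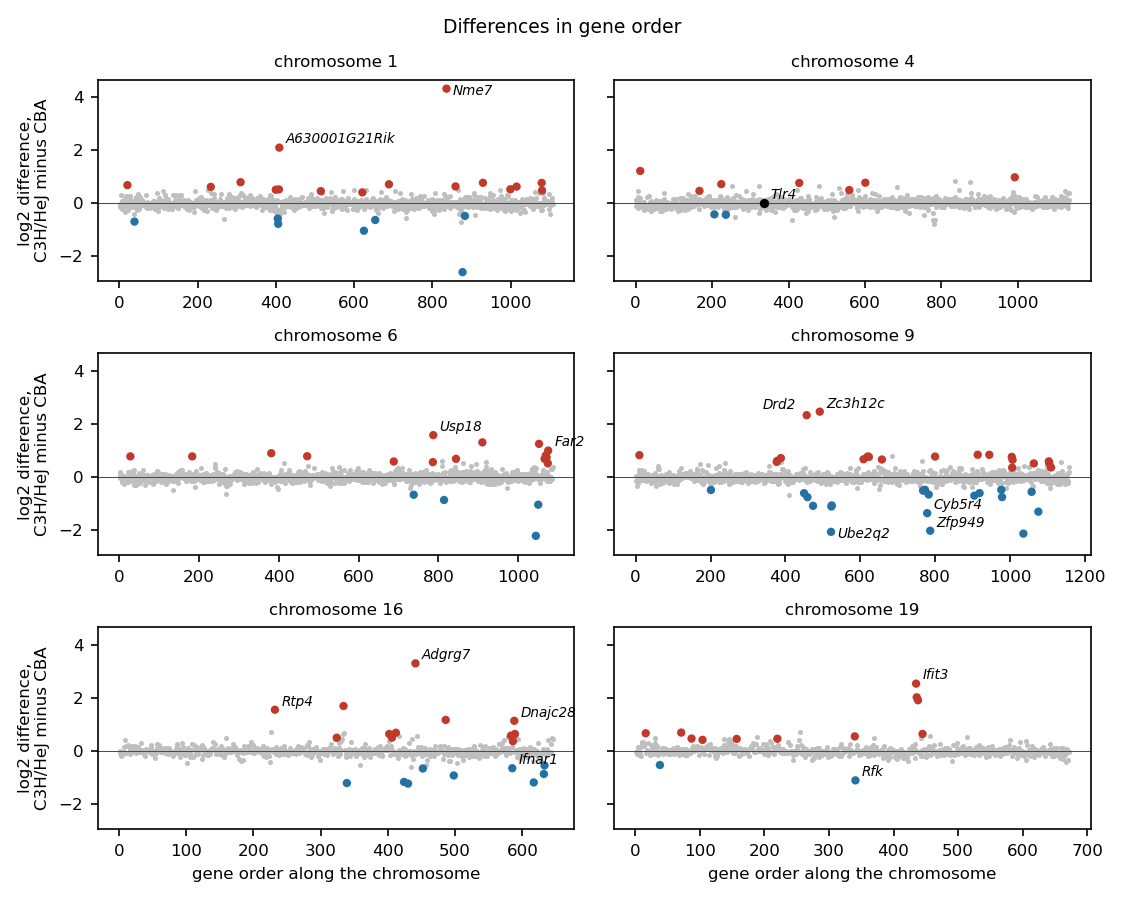
Difference of log2 intensity (vertical axis) of every measured gene of 6 chromosomes in gene order (horizontal axis); called genes are red where higher and blue where lower in C3H/HeJ, and Tlr4 is the black point on chromosome 4. Chromosome 9 shows called genes in both directions along its length, and no called gene lies next to Tlr4.

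Of 5 sex-linked genes listed 4 were measured, and the 3 of these on the Y chromosome were called higher in C3H/HeJ. Over all genes the share called higher was 1.09%. The Y chromosome had 9 measured genes in all, and these 3 (33.3%) were the only ones called. Uty, a histone demethylase family member, was at 8.76 and 8.76 in C3H/HeJ, against 7.66 to 7.92 on the CBA arrays (0.93 ± 0.22, adjusted p = 0.0124). Kdm5d, a histone demethylase, differed by 0.75 ± 0.15 and Eif2s3y, a translation initiation factor, by 0.73 ± 0.20. Eif2s3y lost its call without any 1 of the 6 arrays (adjusted p = 0.0835 to 0.468), with the replicate block (adjusted p = 0.059), with a common array median (adjusted p = 0.0836) and without the wild-derived strains (adjusted p = 0.0571). Uty lost it without either C3H/HeJ array or CBA/CaJ replicate 2 (adjusted p = 0.0644 to 0.211), and Kdm5d without C3H/HeJ replicate 2 (adjusted p = 0.0735). Xist, the RNA of the inactive X chromosome, was not called (5.36 and 5.11 in C3H/HeJ, against 5.30 to 5.43 on the CBA arrays).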

How the data were processed

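The authors deposited 1 linear intensity per probe set and array, made with Affymetrix Power Tools and RMA per the submitters' processing notes. Versions and genome build: not given in the sources used here. Their range (5.30 to 19348) was taken to mean an unlogged scale. RMA summarises several probes, so single probes were not examined. Values were converted to log2 and not scaled further. The platform's gene table gave 1 symbol for 21425 probe sets; a gene with several probe sets is shown by the brightest (19752 genes). Gene order and names come from the RefSeq table of assembly GRCm38.p6.

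Tests used limma 3.58.1 in R 4.3.3 (lmFit and eBayes, 2-sided) with 1 mean per titled group over all 81 arrays, 41 residual and 7.93 prior degrees of freedom, Benjamini-Hochberg adjustment over 24922 probe sets and a threshold of 0.05. The fit was tested on simulated data. Named genes were, by size of difference, the first 15 higher and the first 15 lower of the called genes whose arrays did not overlap and whose higher group mean was at least 7, every member of the lipopolysaccharide receptor complex, up to 6 members of each other list, Tlr4 with its 5 neighbours on each side and up to 8 genes of a window. Other members given as examples were chosen after their values were seen. The 37 lists hold 586 entries, 513 of them measured. The members, the comparison and the lists were chosen with earlier results of these data known.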

Additional observations from a re-analysis of the deposited data

Results flagged for a closer look

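In a group of 4 arrays, 1 array far from the others is expected by chance in about 1 group in 20. Of the genes followed, 83 of which were called, 3 had 1 of the 4 CBA arrays far from the other 3. The first CBA/CaJ array was high for Isg20 (9.22) and for Sting1 (7.83), and the second CBA/CaJ array was low for Fcgr4 (10.86).

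For 6 of the genes followed, the difference of C3H/HeJ from CBA/J was not that from CBA/CaJ, since the CBA strains themselves were called apart in limma. Olfml2b and St8sia1, described above, were not among the genes followed. Of all 381 called probe sets, 80 were also called between the CBA strains. CBA/J minus CBA/CaJ was 1.79 for Dubr, 1.62 for Nlrp1b and 1.00 for Oasl2, where CBA/J was higher. It was -1.75 for Nlrp1a, -1.21 for Casp4 and -0.78 for A530040E14Rik, where CBA/J was lower. The average over the CBA strains that the report gives for these genes describes neither strain.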

How the results depend on the processing

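Of 83 called genes followed by name, 43 kept their call under each of the 17 alternatives run for them (67 of the 83 could be followed with a mean of at least 7), 33 lost it without 1 array and 27 under another alternative; none changed sign. Of the 30 genes picked by size, Dubr alone lost its call, with CBA fitted as 1 group (adjusted p = 0.601). The count of 381 was 197 with CBA as 1 group, whose spread then includes the difference between its strains, and 860 with a fit of the 6 arrays alone. Deviations of same-numbered arrays correlated at 0.062, 0.079 and -0.053 between the strains, so the numbers were not taken to pair samples; with the replicate block the count was 395, and with the block in the 6 arrays alone, added after the data were seen, 878. For CBA/CaJ, CBA/J and the CBA strains against each other, the 6 arrays alone gave 995, 797 and 1229, and with the block 1035, 769 and 1223. Grouping by the background label, which adds the arrays titled C57BR to CBA/CaJ, gave 1114 against CBA/CaJ and 807 between the CBA strains. Without 1 array the main count lay between 181 and 351, that with at least 2-fold between 90 and 96, C3H/HeJ against CBA/CaJ between 294 and 363, against CBA/J between 154 and 168, and CBA/J against CBA/CaJ between 124 and 214; C3H/HeJ against the other classical strains gave 594 and 608 without 1 of its arrays, a refit added after the data were seen, and the called interferon-stimulated genes numbered 14 to 21. The sign of uncalled receptor genes was not stable: Tlr4 was -0.063 by background label, -0.026 after quantile normalization and -0.060 to 0.10 without 1 array, Itgb2 0.010 by background label and -0.021 to 0.0098, Ly86 -0.031 by background label and -0.014 to 0.10, and Cd180 -0.091 to 0.32. Called cell cycle genes numbered from 0 (CBA as 1 group) to 22 (6 arrays alone). With a spacer of 1 to 3 bases the response element was in 35.1% of promoters of genes at least 2-fold higher, 14.3% of those lower and 9.21% of all, and in 68.8% of called and 66.7% of uncalled interferon-stimulated genes. With 2 arrays a strain, small differences are limited by the number of arrays. The causes of these changes were not tested.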

Other observations

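Against the average of 32 other classical strains, none of them CBA, C3H/HeJ had 1526 called probe sets (6.12%), 1164 higher and 362 lower. The C3H/HeJ arrays are those of the main comparison, and the count was 608 without replicate 1 and 594 without replicate 2. Of the 39 interferon-stimulated genes 21 were called higher in C3H/HeJ in that comparison (over all genes, 4.6%) and none lower, with a median difference of 0.36. Usp18 was higher by 1.26, Rtp4 by 1.28, and Cd14 differed by 0.56 (adjusted p = 0.0828).

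The arrays titled C57BR carry a background label of CBA/CaJ. Over the 1500 most variable probe sets their profile was most like that of C57BL/6J (Pearson r = 0.614 across probe sets), and CBA/CaJ was not among their 4 closest strains; they were kept out of the CBA groups by their title.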
